A study of Mus musculus with 12 samples.

Results

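Skeletal muscle contracts when an action potential runs along the sarcolemma, the surface membrane of the fiber, and into its transverse tubules. Sodium channels carry the upstroke, potassium channels repolarize the membrane, and inward rectifier potassium channels and the muscle chloride channel hold the resting potential. The ATP-sensitive potassium channel, built from an inward rectifier pore and a sulfonylurea receptor, opens when ATP falls and couples the metabolic state of the fiber to its excitability. Messenger RNA (mRNA) levels of 8 genes for these channels were examined, out of 55367 gene symbols in the data. The 8 genes were chosen by name: *Clcn1*, *Scn4a*, *Kcnj2*, *Kcnj12*, *Kcnj11*, *Abcc8*, *Abcc9* and *Kcnc4*. Each had a value on 1 line in every sample, and 8 of 8 passed the filter on low values.

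The 12 samples were single muscle fibers isolated by collagenase from the extensor digitorum longus (EDL) muscle, a fast muscle of the lower leg, and the labels name no transgene or treatment. The Young group held 4 samples from mice of 3 to 4 months. Fibers of aged mice (26 to 28 months) were stained with Fluo-4, a fluorescent calcium indicator, and separated under a fluorescence stereomicroscope into 4 Fluo-4 normal samples and 4 Fluo-4 abnormal samples, the latter with aberrantly bright staining. The study describes such fibers in aged males of the C57BL/6J strain, and the number of fibers and of mice behind a sample is not given in the sources used here, so p-values measure the spread between these samples, which may be partly technical. The unit is TPM, a transcript share corrected for transcript length and depth. It sums to 1000000 in each sample, so these values do not give the read depth, and no interval from counting could be set.

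Samples held 16841 to 17936 genes above 0 TPM. The 9 genes of the myofiber marker list summed to 128900 to 131400 TPM in Young and 114300 to 133200 TPM in Fluo-4 normal samples. In Fluo-4 abnormal samples they summed to 133800 to 153500 TPM, above every sample of the other groups. Of the 9, only *Myh4*, the IIb myosin of the fastest fibers, was called. It rose between the aged groups by a log2 difference of 0.66 (limma, adjusted p = 0.0198). Of the TPM of 4 adult myosin heavy chain genes, *Myh4* made up 93.7% to 99.2% in Fluo-4 normal samples. It made up 98.9% to 99.7% in Fluo-4 abnormal and 96.9% to 98.6% in Young samples. Mitochondrially-encoded genes took 8.75% to 10.9%, 4.75% to 6.92% and 7.35% to 8.01% of the TPM in these groups. Replicate 1 of the Fluo-4 normal fibers stood apart with a TMM-type scaling factor of 0.809, whereas the other 11 samples lay between 0.908 and 1.17. The factors also differed by group. Those of all Fluo-4 abnormal samples, 1.06 to 1.17, were above those of all other samples, at most 1.04. Within a sample, fewer fibers with a transcript and less of it per fiber cannot be told apart.

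The promoter of *Clcn1* is shown because *Clcn1* was the most abundant of the 8 genes and passed the test between the aged groups. The 250 bases before its RefSeq start (sequence from the RefSeq table of assembly GRCm38.p6) were found once in GRCm39, at chr6:42263369-42263618 on the plus strand, and 24 of them lie in an annotated exon. Capitals mark E-boxes (CANNTG, the motif of myogenic basic helix-loop-helix factors) and a MEF2 motif, searched on both strands. The MEF2 match contains the single TATA box match (TATAAA).
*Clcn1* promoter: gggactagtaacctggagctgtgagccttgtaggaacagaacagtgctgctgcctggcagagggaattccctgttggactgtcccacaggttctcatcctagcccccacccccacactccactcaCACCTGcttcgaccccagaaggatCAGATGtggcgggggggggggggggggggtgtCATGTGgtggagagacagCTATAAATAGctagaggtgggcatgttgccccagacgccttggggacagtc
There are 3 E-boxes, 1 MEF2 match and 0 GC boxes (GGGCGG) in this window. Among 32851 RefSeq promoters, 66.2% held an E-box, 2.9% a MEF2 match, 12.4% a TATA box and 32.7% a GC box in the same length. These matches describe the letters only. Promoters of 6 of the 8 genes were matched in the table, those of *Kcnj11* and *Abcc8* were not.

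In all 3 groups the genes had the same order of mean TPM, a level per transcript length: *Clcn1*, *Scn4a*, *Kcnc4*, *Kcnj12*, *Abcc9*, *Kcnj11*, *Kcnj2* and *Abcc8*. Not every step of this order exceeded the spread. The ranges of *Clcn1* and *Scn4a* overlapped in every group, as did those of *Scn4a* and *Kcnc4* in both aged groups, and *Kcnj11* and *Kcnj2* also overlapped in both aged groups. *Kcnc4* and *Kcnj12* overlapped in the Young group, *Kcnj12* and *Abcc9* in Fluo-4 abnormal fibers, and *Abcc9* and *Kcnj11* in the Young and Fluo-4 normal groups. *Abcc8* lay below the other 7 genes without overlap in every group. Summed over the 8 genes, the level was 268 ± 25.6 TPM (SD, n = 4) in Young, 231 ± 42.6 TPM (SD, n = 4) in Fluo-4 normal and 310 ± 40.4 TPM (SD, n = 4) in Fluo-4 abnormal samples.

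Groups were compared on the log2(TPM + 1) scale, which understates changes of genes with low values, in 1 limma fit over the 14429 genes tested, with Benjamini-Hochberg adjustment over all of them. The comparison of Fluo-4 abnormal with Fluo-4 normal fibers asks what distinguishes the abnormal fibers at the same age, and the comparisons with Young fibers set both against youth. The 3 comparisons share samples, so they are not independent of each other. Between the aged groups, *Clcn1* and *Abcc8* rose in Fluo-4 abnormal fibers, which is 2 of 8 genes against 9.35% of all tested genes. With replicate number as a block, 1 of the 8 (*Clcn1*) passed. Values did not overlap between the aged groups for 2 of the 8, against 14% of all tested genes. Against Young, *Abcc8* and *Kcnc4* rose in Fluo-4 abnormal fibers, 2 of 8 against 8.5% of all genes, and 2 of the 8 did not overlap, against 16.2%. Between Fluo-4 normal and Young fibers, limma called 0 of the 8 against 1.15% of all genes. At an unadjusted p under 0.05 there were 3 of the 8, beside 1865 of the 14429 genes. Values of 1 of the 8 did not overlap in this comparison, against 7.98%. With only the 6348 genes with a mean of at least 5 TPM in a group tested, 7 of the 8 remained. Of these, 3 passed between the aged groups, beside 1710 of the 6348. Against Young, 1 passed in Fluo-4 abnormal fibers (beside 1341 of the 6348) and 1 in Fluo-4 normal fibers (beside 266).

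All 8 genes had a higher fitted value in Fluo-4 abnormal than in Fluo-4 normal fibers. So did 78.6% of the 6348 genes with a mean of at least 5 TPM in a group. With TMM-type factors *Kcnj2* and *Kcnj12* were lower and 6 of the 8 higher, beside 49.3% of the 6348. The median log2 difference of the 8 genes was 0.39, beside 0.10 for all tested genes and 0.20 for the 6348. With TMM-type factors the median of all tested genes was 0. Relative to the median of all tested genes in the reported fit, *Clcn1* differed by 0.52 and *Abcc8* by 0.82. The difference of *Clcn1* with TMM-type factors was 0.40. Against Young fibers the median of the 8 was 0.24 in Fluo-4 abnormal fibers (all tested genes 0.07, the 6348 genes 0.12). In Fluo-4 normal fibers it was -0.25 (all tested genes -0.02, the 6348 genes -0.07).

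**Figure D1:**
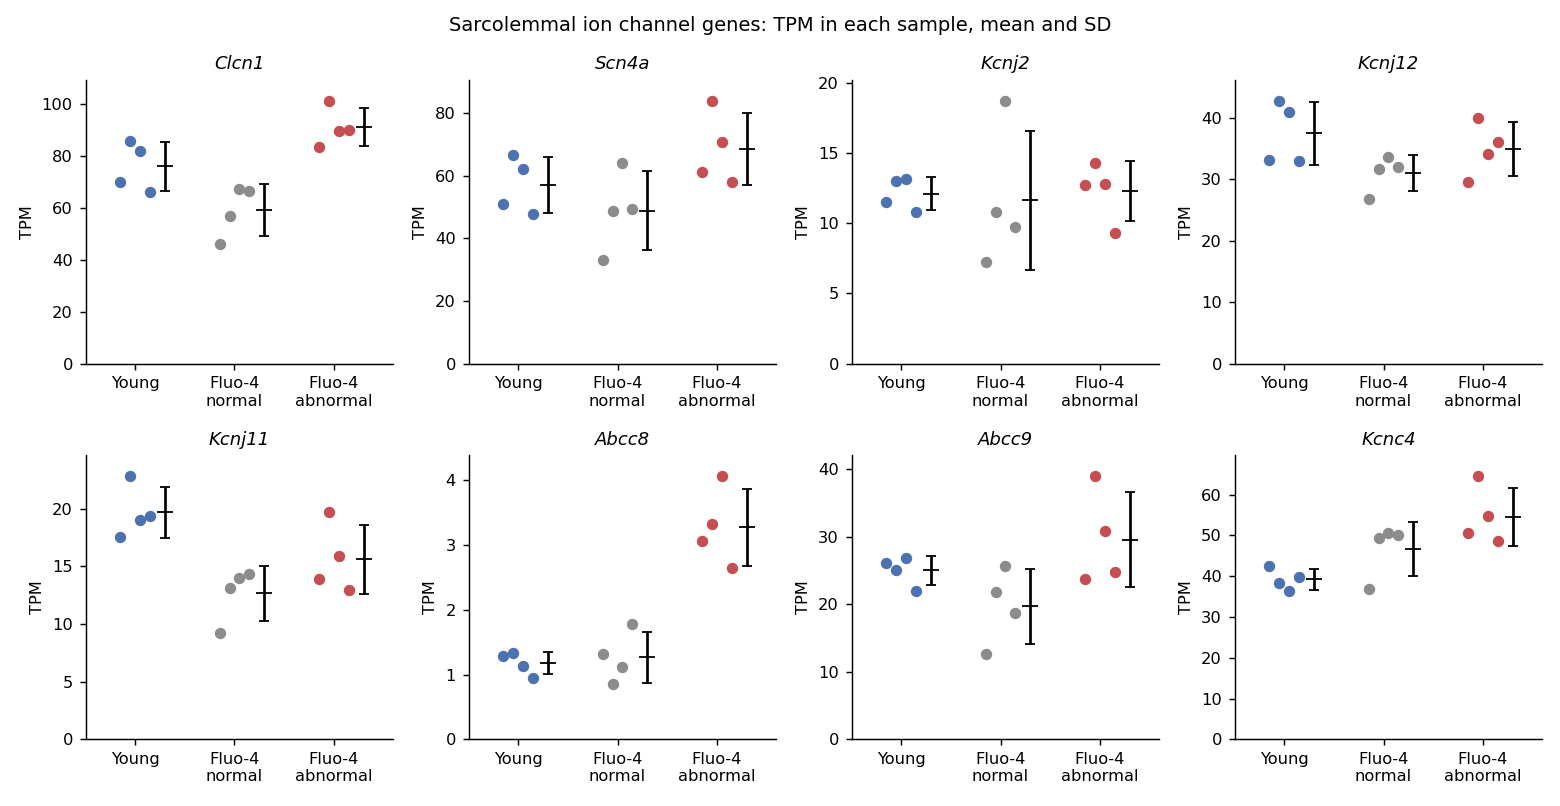
Each panel plots 1 gene, with TPM on the vertical axis (from 0, its own scale) and the 4 samples of each group as points in replicate order, beside a bar with the mean and SD. The 4 Fluo-4 abnormal points lie above the 4 Fluo-4 normal points for *Clcn1* and *Abcc8*, and the 4 Young points lie above the 4 Fluo-4 normal points for *Kcnj11*.

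*Clcn1* (ENSMUSG00000029862.18, GRCm39 chr6:42263595-42292718, plus strand) encodes the chloride channel that carries most of the resting conductance of skeletal muscle, and its loss causes myotonia. Its level in Fluo-4 normal replicates 1 to 4 was 46.0, 56.9, 67.3 and 66.7 TPM. In Fluo-4 abnormal fibers it was 83.5, 101, 89.8 and 90.0 TPM, and in Young fibers 69.9, 85.9, 82.0 and 66.0 TPM. Every Fluo-4 abnormal sample was above every Fluo-4 normal sample, while the Young samples overlapped with both aged groups. The log2 difference between the aged groups was 0.63 (SE 0.12, limma, adjusted p = 0.00766), a ratio of means of 1.54. The call held in 24 of 25 alternatives and was lost (limma, adjusted p = 0.26) with a replicate block and the *Myh4* share together. Against Young fibers the log2 difference was 0.26 (SE 0.12, limma, adjusted p = 0.212) in Fluo-4 abnormal and -0.36 (SE 0.12, limma, adjusted p = 0.189) in Fluo-4 normal fibers. *Fam131b*, on the opposite strand at 0.054 to 0.433 TPM, shares 473 exon bases with *Clcn1*, which libraries without strand cannot separate.

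*Scn4a* (ENSMUSG00000001027.9, chr11:106208370-106256385, minus strand) encodes the sodium channel of adult skeletal muscle, which carries the upstroke of the action potential. It was at 33.1, 48.8, 64.1 and 49.6 TPM in Fluo-4 normal replicates 1 to 4 and at 61.3, 84.0, 70.9 and 58.2 TPM in Fluo-4 abnormal fibers. Young samples had 51.1, 66.6, 62.3 and 48.0 TPM. The aged groups overlapped through Fluo-4 normal replicate 3. *Scn4a* was higher in the Fluo-4 abnormal sample of 4 of 4 same-numbered pairs, as were *Clcn1*, *Kcnj12*, *Abcc8* and *Abcc9*. *Kcnj11* and *Kcnc4* were higher in 3 of 4 and *Kcnj2* in 2 of 4. Pairs were not counted for all tested genes, and 78.6% of the 6348 genes had a higher fitted value in Fluo-4 abnormal fibers. The log2 difference of *Scn4a* between the aged groups was 0.50 (SE 0.18, limma, adjusted p = 0.0911), which did not pass. Leaving out Fluo-4 normal replicate 3 gave 0.64 with an adjusted p of 0.0382 (limma), and testing only genes reaching 5 TPM gave an adjusted p of 0.0431 (limma). Against Young fibers the differences were 0.26 (limma, adjusted p = 0.421) in Fluo-4 abnormal and -0.24 (limma, adjusted p = 0.618) in Fluo-4 normal fibers.

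*Clcn1* and *Scn4a* have opposite effects on excitability, and their balance within a sample does not depend on scaling. The log2 ratio of *Clcn1* to *Scn4a* was 0.42 ± 0.05 (SD, n = 4) in Young, 0.30 ± 0.19 (SD, n = 4) in Fluo-4 normal and 0.42 ± 0.16 (SD, n = 4) in Fluo-4 abnormal fibers. The difference between the aged groups was 0.12 (two-sided exact permutation test, p = 0.3714, adjusted p = 0.5571 over 12 ratio tests). The largest difference of this ratio between any 2 groups was smaller than the SD of the Fluo-4 normal samples.

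*Kcnj2* (ENSMUSG00000041695.4, chr11:110956981-110967665, plus strand) and *Kcnj12* (ENSMUSG00000042529.16, chr11:60912944-60964099, plus strand) encode strong inward rectifiers that hold the membrane near the potassium equilibrium potential. *Kcnj12* was at 26.8, 31.7, 33.7 and 32.0 TPM in Fluo-4 normal replicates 1 to 4, at 29.5, 40.0, 34.1 and 36.1 TPM in Fluo-4 abnormal and at 33.2, 42.8, 41.0 and 33.0 TPM in Young fibers. The 3 groups overlapped. Its log2 difference was 0.16 between the aged groups (95% confidence interval -0.09 to 0.41, limma, adjusted p = 0.411), -0.10 between Fluo-4 abnormal and Young fibers (limma, adjusted p = 0.662) and -0.26 between Fluo-4 normal and Young fibers (limma, unadjusted p = 0.0409, adjusted p = 0.358).

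*Kcnj2* was lower, at 7.25, 10.8, 18.7 and 9.73 TPM in Fluo-4 normal replicates 1 to 4. It was at 12.7, 14.3, 12.8 and 9.28 TPM in Fluo-4 abnormal and at 11.5, 13.02, 13.2 and 10.8 TPM in Young fibers. Fluo-4 normal fibers held both the lowest and the highest value of the 12 samples. The log2 difference between the aged groups was 0.13, with a 95% confidence interval of -0.33 to 0.60 (limma, adjusted p = 0.729), and without Fluo-4 normal replicate 1 it was -0.04. It was 0.01 between Fluo-4 abnormal and Young fibers (limma, adjusted p = 0.997) and -0.13 between Fluo-4 normal and Young fibers (limma, adjusted p = 0.864). *Kcnj2* made up 24.5% ± 0.98 (SD, n = 4) of the sum of both in Young, 26.4% ± 6.42 (SD, n = 4) in Fluo-4 normal and 26.1% ± 4.08 (SD, n = 4) in Fluo-4 abnormal fibers, a difference of -0.36 percentage points between the aged groups (exact permutation test, p = 0.9429).

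*Kcnj11* (ENSMUSG00000096146.3, chr7:45743377-45750188, minus strand) encodes the pore of the ATP-sensitive channel. The level was 17.5, 22.8, 19.0 and 19.4 TPM in Young replicates 1 to 4, 9.20, 13.1, 14.0 and 14.3 TPM in Fluo-4 normal and 13.9, 19.7, 15.9 and 12.9 TPM in Fluo-4 abnormal fibers. All Young samples were above all Fluo-4 normal samples, whereas the Fluo-4 abnormal samples overlapped with both. The log2 difference of Fluo-4 normal from Young fibers was -0.61 (SE 0.15, limma, unadjusted p = 0.00146, adjusted p = 0.0764), which did not pass. With TMM-type factors it was -0.56 and passed (limma, adjusted p = 0.0298). For Fluo-4 abnormal against Young fibers the difference was -0.33 (limma, adjusted p = 0.222), and -0.49 with TMM-type factors (limma, adjusted p = 0.0202). Between the aged groups it was 0.28 (SE 0.15, limma, adjusted p = 0.266).

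*Abcc9* (ENSMUSG00000030249.17, chr6:142533588-142648571, minus strand) and *Abcc8* (ENSMUSG00000040136.12, chr7:45753947-45829473, minus strand) encode the sulfonylurea receptors, the regulatory subunits that sense nucleotides. *Abcc8* lies next to *Kcnj11*, 3758 bases away on the same strand. *Abcc9*, the more abundant receptor, was at 26.2, 25.0, 26.8 and 21.999 TPM in Young replicates 1 to 4, at 12.6, 21.8, 25.6 and 18.7 TPM in Fluo-4 normal and at 23.8, 38.9, 30.9 and 24.7 TPM in Fluo-4 abnormal fibers. Its lowest value was in Fluo-4 normal replicate 1, and the aged groups overlapped through replicate 3. The log2 difference between the aged groups was 0.58 (SE 0.19, limma, unadjusted p = 0.00928, adjusted p = 0.0739). Like the genes named with *Scn4a* above, *Abcc9* was higher in the Fluo-4 abnormal sample of 4 of 4 pairs. It passed in 4 of 25 alternatives. These were leaving out Fluo-4 normal replicate 3 (0.72, limma, adjusted p = 0.0396), the *Myh4* share as a covariate (1.01, limma, adjusted p = 0.0326), testing only genes reaching 5 TPM (limma, adjusted p = 0.0344) and the replicate block with GC and length correction (0.48, limma, adjusted p = 0.0269). With the block alone the adjusted p was 0.0588 (limma). Against Young fibers it was 0.21 (limma, adjusted p = 0.565) in Fluo-4 abnormal and -0.37 (limma, adjusted p = 0.448) in Fluo-4 normal fibers.

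*Abcc8* was low in fibers of the other groups, at 1.29, 1.33, 1.14 and 0.952 TPM in Young replicates 1 to 4 and at 1.31, 0.852, 1.12 and 1.79 TPM in Fluo-4 normal fibers. Fluo-4 abnormal fibers had 3.06, 3.33, 4.06 and 2.65 TPM. Every Fluo-4 abnormal sample was above the 8 others, and Young and Fluo-4 normal samples overlapped. *Abcc8* rose by a log2 difference of 0.92 against Fluo-4 normal fibers (SE 0.16, limma, adjusted p = 0.00459) and of 0.97 against Young fibers (SE 0.16, limma, adjusted p = 0.00317). The ratios of the means were 2.58 and 2.78. Between Fluo-4 normal and Young fibers the difference was 0.05 (limma, adjusted p = 0.949). With replicate number as a block the difference between the aged groups kept its size but missed the threshold (limma, adjusted p = 0.0535), and with the *Myh4* share as a covariate it was 0.71 (limma, adjusted p = 0.074). The difference from Young fibers passed in 24 of 24 alternatives that tested it.

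*Abcc8* is known from beta cells and neurons, and *Abcc9* also from vascular smooth muscle. Markers of mural cells (9 genes) summed to 7.72 to 67.9 TPM in Young, 8.77 to 31.6 TPM in Fluo-4 normal and 4.97 to 16.7 TPM in Fluo-4 abnormal samples, and 0 of the 9 were called in any comparison. Schwann and nerve markers (5 genes) summed to 0.773 to 1.81, 1.42 to 6.60 and 3.63 to 7.98 TPM in these groups. Of them, *Mbp* and *Sox10* rose in Fluo-4 abnormal against Young fibers, and 0 of 5 were called between the aged groups. Immune markers (5 genes) summed to 0.794 to 1.98, 1.02 to 1.69 and 2.63 to 5.71 TPM, with *Cd3e* higher in Fluo-4 abnormal fibers against either group. The summed immune markers did not overlap between the aged groups through *Cd3e* alone. Without it, the other 4 immune markers summed to 0.161 to 0.922 TPM in Fluo-4 normal and 0.457 to 2.95 TPM in Fluo-4 abnormal fibers, which overlapped. The part of nerve or immune markers in the *Abcc8* difference was not tested. Adipocyte markers were at 0 in all samples (3 of 3 genes). Of the endothelial (6), fibroblast (5), satellite cell (4) and erythroid (3) markers, 0 were called in any comparison.

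The make-up of the ATP-sensitive channel transcripts was compared within samples, as the plot of ratios shows, and 0 of the 12 ratio tests passed after adjustment. With 4 samples a group, 7 of the 12 would have had to reach the smallest possible p for any to pass, so a single ratio could not. *Abcc8* made up 4.70%, 5.07%, 4.06% and 4.15% of the sum of *Abcc8* and *Abcc9* in Young replicates 1 to 4. It made up 9.44%, 3.76%, 4.203% and 8.73% in Fluo-4 normal and 11.4%, 7.89%, 11.6% and 9.69% in Fluo-4 abnormal fibers. All Fluo-4 abnormal samples were above all Young samples (two-sided exact permutation test, p = 0.0286, adjusted p = 0.1143 over 12 ratio tests). The aged groups overlapped (exact permutation test, p = 0.1143), with Fluo-4 normal replicates 1 and 4 near the Fluo-4 abnormal values. Within same-numbered aged pairs, the share was higher in the Fluo-4 abnormal sample in 4 of 4.

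The log2 ratio of the pore *Kcnj11* to both receptors was -0.41 ± 0.22 (SD, n = 4) in Young, -0.71 ± 0.19 (SD, n = 4) in Fluo-4 normal and -1.07 ± 0.08 (SD, n = 4) in Fluo-4 abnormal fibers. Fluo-4 abnormal samples lay below all samples of both other groups. The difference was -0.36 from Fluo-4 normal and -0.65 from Young fibers, each with p = 0.0286 in the exact permutation test, the smallest that 4 against 4 samples allow, and an adjusted p of 0.1143 over 12 ratio tests. Fluo-4 normal and Young fibers overlapped (exact permutation test, p = 0.1429). Since these ratios are taken within a sample, they are the same under any scaling.

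**Figure D2:**
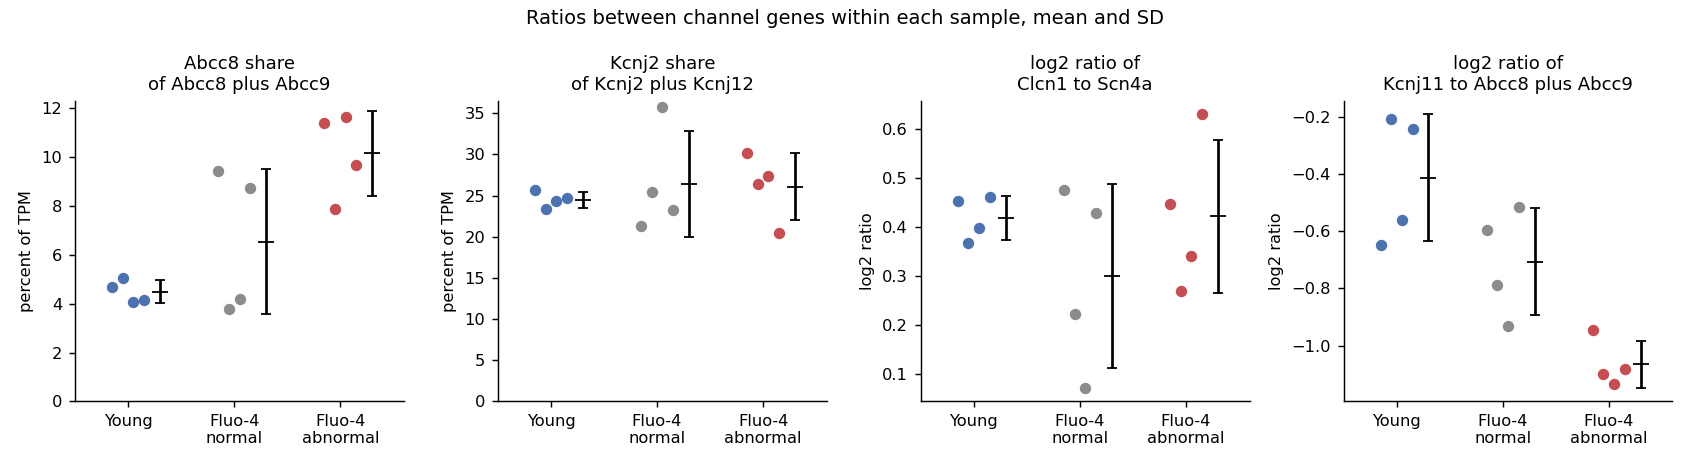
Each panel plots 1 ratio of TPM values taken within a sample (percent of TPM, or log2 ratio), with 4 points per group in replicate order and a bar for the mean and SD. The log2 ratio of *Kcnj11* to *Abcc8* plus *Abcc9* is lowest in the 4 Fluo-4 abnormal samples, whereas the *Kcnj2* share and the ratio of *Clcn1* to *Scn4a* overlap in all groups.

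*Kcnc4* (ENSMUSG00000027895.12, chr3:107345603-107367781, minus strand) encodes a fast voltage-gated potassium channel of the Shaw family that repolarizes the membrane. Its level was 42.5, 38.3, 36.3 and 39.9 TPM in Young replicates 1 to 4, 36.8, 49.4, 50.6 and 50.1 TPM in Fluo-4 normal and 50.5, 64.5, 54.8 and 48.6 TPM in Fluo-4 abnormal fibers. All Fluo-4 abnormal samples were above all Young samples, and 3 of 4 Fluo-4 normal samples were too, replicate 1 being the exception. *Kcnc4* rose in Fluo-4 abnormal against Young fibers by a log2 difference of 0.46 (SE 0.11, limma, adjusted p = 0.0243). The call held in 18 of 25 alternatives. It was lost with TMM-type factors (0.29, limma, adjusted p = 0.0709), with no filter (limma, adjusted p = 0.0661) and without Young replicate 2, 3 or 4 or Fluo-4 abnormal replicate 2 or 3 (adjusted p = 0.066, 0.0751, 0.0647, 0.0758 and 0.0583 in limma). The difference was 0.24 between Fluo-4 normal and Young fibers (limma, adjusted p = 0.405) and 0.22 between the aged groups (limma, adjusted p = 0.235).

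**Figure D3:**
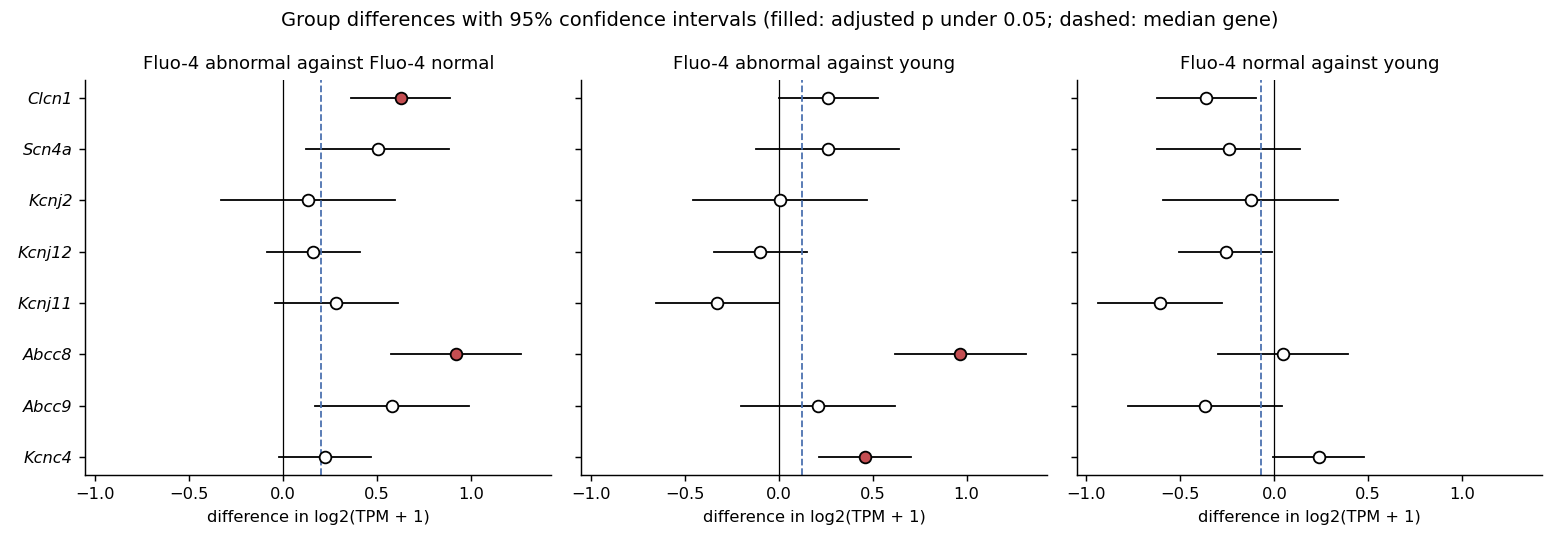
Points give the difference in log2(TPM + 1) of each gene in each of the 3 comparisons, lines its 95% confidence interval from limma, and filled points an adjusted p under 0.05. The dashed line is the median of the 6348 genes reaching 5 TPM, at 0.20, 0.12 and -0.07 from left to right. *Clcn1* and *Abcc8* are filled on the left and *Abcc8* and *Kcnc4* in the middle.

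**Figure D4:**
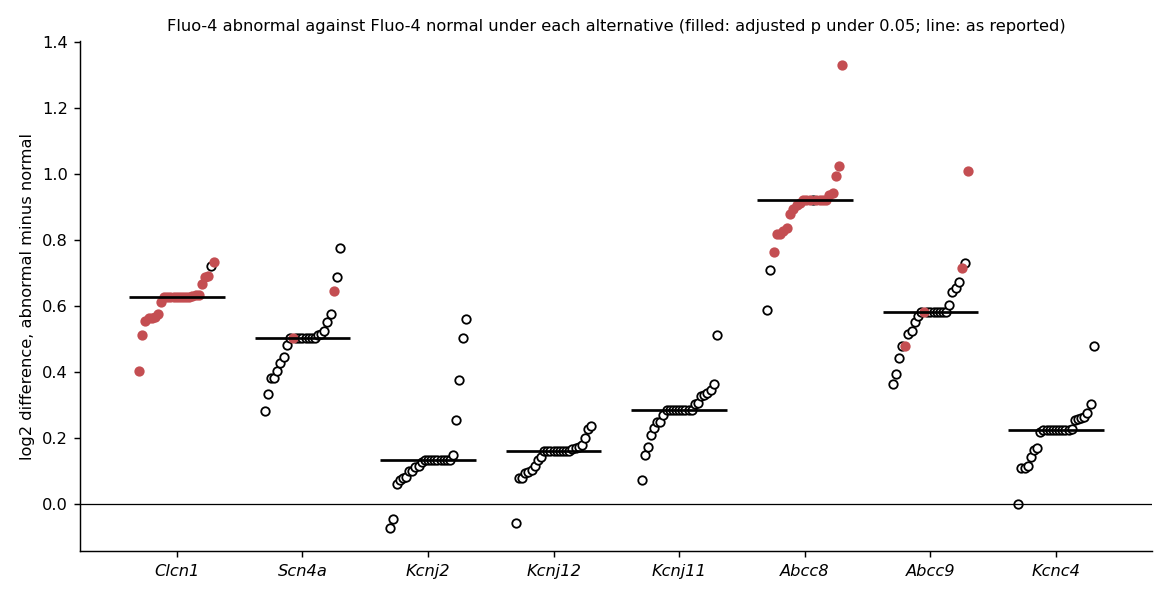
For each gene, points give the log2 difference between Fluo-4 abnormal and Fluo-4 normal fibers under each processing alternative, ordered by value, with filled points where the adjusted p was under 0.05 and a line at the reported value. *Clcn1* stays between 0.40 and 0.73 and *Abcc8* between 0.59 and 1.33, while *Kcnj2* and *Kcnj12* cross 0.

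The other genes of the same system were taken from lists of 60 sodium, potassium, chloride and cation channel genes, channel anchoring genes and splicing factors that act on *Clcn1*, of which 49 were tested. Between the aged groups 4 rose and 1 fell in Fluo-4 abnormal fibers, near the share of 9.35% over all tested genes. Against Young, 3 rose, beside 8.5% of all tested genes, and 0 were called between Fluo-4 normal and Young fibers, beside 1.15%. Their median log2 difference between the aged groups was 0.05, beside 0.10 for all tested genes.

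Of the sodium channel genes, 0 of 6 tested were called in any comparison. *Scn4b*, an accessory subunit, had a mean of 94.9 TPM and a log2 difference of -0.06 between the aged groups (limma, adjusted p = 0.747).

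Among potassium channel genes 25 of 33 were tested, and 2 rose and 1 fell between the aged groups. *Kcnab1*, an accessory beta subunit of voltage-gated potassium channels, was at 5.35, 15.8, 10.7 and 7.81 TPM in Fluo-4 abnormal replicates 1 to 4, against 2.32, 2.85, 3.37 and 3.03 TPM in Fluo-4 normal and 1.01 to 2.53 TPM in Young fibers. Every Fluo-4 abnormal sample was above the 8 others. Its log2 difference was 1.40 against Fluo-4 normal (SE 0.27, limma, adjusted p = 0.00666) and 1.86 against Young fibers (SE 0.27, limma, adjusted p = 0.00113). The first call was lost with a replicate block and the *Myh4* share together (0.78, limma, adjusted p = 0.297). *Kcnma1*, the pore of the large-conductance calcium-activated channel, was at 18.6 to 21.8 TPM in Fluo-4 abnormal and 12.2 to 13.8 TPM in Fluo-4 normal fibers (log2 difference 0.59, SE 0.11, limma, adjusted p = 0.00556). The *Kcnma1* call was lost with the *Myh4* share as a covariate (0.57, limma, adjusted p = 0.0523), and with the replicate block added to it (0.76, limma, adjusted p = 0.256). Against Young fibers its difference was 0.36 (limma, adjusted p = 0.0551).

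*Kcnn2*, a small-conductance calcium-activated channel, fell from 1.27 to 2.96 TPM in Fluo-4 normal to 0.748 to 1.14 TPM in Fluo-4 abnormal fibers (log2 difference -0.74, limma, adjusted p = 0.0352). It passed in 9 of 24 alternatives, with an adjusted p of 0.0913 under a replicate block (limma). With the *Myh4* share as a covariate the difference was -0.37 (limma, adjusted p = 0.4). Leaving out Fluo-4 normal replicate 2, 3 or 4 gave an adjusted p of 0.0926, 0.0706 or 0.0746, and leaving out Fluo-4 abnormal replicate 1, 2, 3 or 4 gave 0.051, 0.104, 0.0573 or 0.0851 (limma). *Kcnq1*, a voltage-gated potassium channel, was low and rose from 0 to 0.176 TPM in Young to 0.401 to 0.780 TPM in Fluo-4 abnormal fibers (log2 difference 0.55, limma, adjusted p = 0.0167). This call was lost with no filter on low values (limma, adjusted p = 0.0532). Leaving out Young replicate 3 or Fluo-4 abnormal replicate 2 or 3 also lost it (limma, adjusted p = 0.0571, 0.0549 and 0.0505). *Kcna7* had the highest mean of this list, 24.7 TPM, with log2 differences of -0.39 (limma, adjusted p = 0.214) against Fluo-4 normal and -0.64 (limma, adjusted p = 0.0533) against Young fibers.

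Of 8 chloride and cation channel genes tested, 0 were called. *Ano6*, a scramblase and channel, had a mean of 11.2 TPM and a log2 difference of 0.78 between the aged groups (limma, adjusted p = 0.067). *Ano5* had a mean of 15.8 TPM and a log2 difference of 0.15 (limma, adjusted p = 0.604). Of 7 anchoring genes tested, *Ank1*, an ankyrin of the membrane skeleton, rose between the aged groups by 0.43 (limma, adjusted p = 0.00941), but with TMM-type factors the difference was 0.21 (limma, adjusted p = 0.325) and with the *Myh4* share as a covariate 0.42 (limma, adjusted p = 0.0666). The *Ank1* call held in 21 of 25 alternatives. *Cav3*, the muscle caveolin, had a mean of 70.01 TPM and a log2 difference of 0.05 (limma, adjusted p = 0.81). The splicing factor *Mbnl2* rose by 0.39 against Fluo-4 normal (limma, adjusted p = 0.0198) and by 0.41 against Young fibers (limma, adjusted p = 0.0157). With TMM-type factors these differences were 0.16 (limma, adjusted p = 0.322) and 0.24 (limma, adjusted p = 0.0986). The first call held in 15 of 25 alternatives and the second in 22. Leaving out Fluo-4 normal replicate 1 or 4 or Fluo-4 abnormal replicate 2 or 3 lost the first (limma, adjusted p = 0.0544, 0.0563, 0.0708 and 0.0508). So did scaling without mitochondrially-encoded genes, no filter and fitting only the groups compared (limma, adjusted p = 0.0577, 0.052 and 0.0592). The *Myh4* share as a covariate gave an adjusted p of 0.0512, and the block with it 0.256 (limma). The second was lost without Young replicate 4 or Fluo-4 abnormal replicate 2 (limma, adjusted p = 0.0579 and 0.0557). *Mbnl1*, its more abundant relative at a mean of 151 TPM, had a log2 difference of 0.34 between the aged groups (limma, adjusted p = 0.155).

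**Figure D5:**
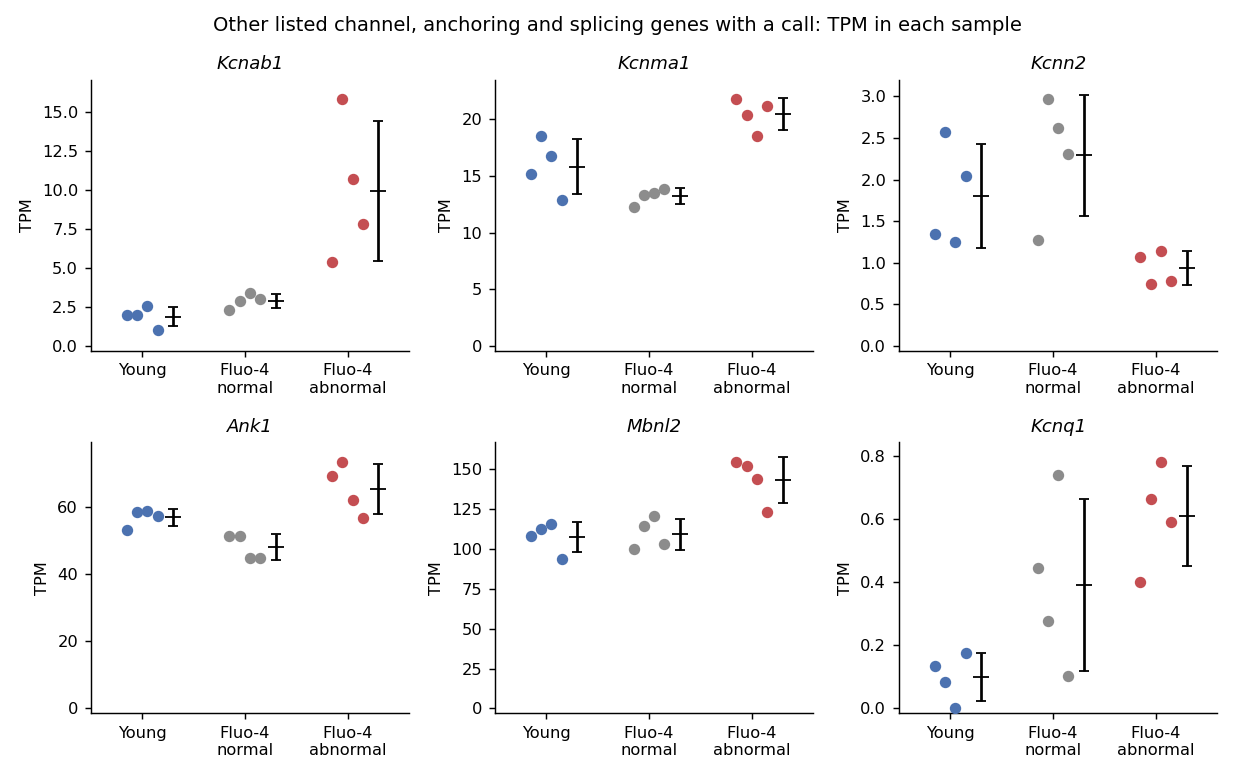
TPM (vertical axis, its own scale) of the 6 other listed genes called in a comparison, with the 4 samples of each group as points and a bar for the mean and SD. *Kcnab1* and *Kcnma1* are higher in the 4 Fluo-4 abnormal samples than in the 8 other samples, and *Kcnn2* is lower in them than in the 4 Fluo-4 normal samples.

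Profiles over the 12 samples were compared by Pearson correlation of log2(TPM + 1) with 5994 genes of at least 5 TPM, as a description, since all points share the 3 groups and the scaling of the samples. *Clcn1* was most like *Tmod1* (0.97), *Copb2* (0.97) and *Phkb* (0.97), and *Scn4a* was most like *Cacna2d1* (0.99), *Dlgap4* (0.97) and *Eif4g1* (0.97). *Kcnj2* was most like *Trip11* (0.94), *Gpbp1* (0.91) and *Phip* (0.90), and *Kcnj12* most like *Raly* (0.92), *Ppp2r5b* (0.91) and *Sorl1* (0.91). *Kcnj11* was nearest to *Dennd4b* (0.94), *Lrrc38* (0.93) and *Rsu1* (0.93). *Abcc8* was nearest to *Plp2* (0.95), *Mybpc2* (0.94) and *Tsr1* (0.93), and *Abcc9* to *Fyco1* (0.97), *Dcaf11* (0.97) and *Lbx1* (0.97). *Kcnc4* was nearest to *Prps1* (0.94), *Dnajc9* (0.93) and *Itgb5* (0.93). Among the 8 genes themselves, *Scn4a* and *Abcc9* had the highest correlation (0.94) and *Clcn1* and *Scn4a* the next (0.91), whereas *Kcnj11* had -0.003 with *Abcc8* and -0.02 with *Kcnc4*.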

How the data were processed

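RNA of isolated EDL myofibers was sequenced in 4 Young, 4 Fluo-4 normal and 4 Fluo-4 abnormal samples. The authors prepared SMART-Seq v4 libraries from 10 ng of RNA, mapped them to GRCm39 with DRAGEN 4.3 and deposited gene-level TPM, with 55487 lines for each sample. Depth, strand and annotation release are not given in the sources used here. The 114 symbols on several lines were summed, and symbols were placed with GENCODE vM39 and RefSeq.

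Values were transformed to log2(TPM + 1). All 12 samples entered 1 limma fit (limma 3.58.1, R 4.3.3, variance trend) over 14429 protein-coding and mitochondrially-encoded genes with a mean of at least 0.02 TPM in a group, with Benjamini-Hochberg adjustment over all genes tested, two-sided. The fit was checked on simulated data. Within-sample ratios were compared by exact permutation over 70 arrangements (12 tests). A BLAST 2.17.0 search for other genes sharing 95% identity over 100 bases found 0 of the 8 genes with such a copy over most of the transcript. Python 3.11.15 with pandas 2.3.3 and matplotlib 3.10.9 made tables and plots.

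The 8 genes, the lists and the tests were chosen with earlier results of these data known. Named were the 8 genes, the genes of 5 further lists (60 genes) past an adjusted p of 0.05 or with the 2 highest means of a list, and the 3 genes most like each of the 8. A result that this rule would name is not reported here. Cell types were checked with 9 marker lists. The 25 alternatives were TMM-type scaling (30% and 5% trimmed), leaving mitochondrially-encoded genes out of the scaling, testing unfiltered genes or those reaching 5 TPM, adding 0.1 in place of 1, all listed genes, a replicate block, a *Myh4* share covariate, GC and length correction, the block with either of these, fitting only the groups compared, quality weights, and leaving out each of 12 samples. The labels number replicates alike without saying that a number marks a mouse. Over 4468 genes, aged samples with the same number deviated from their groups with correlations of 0.51, 0.42, 0.46 and 0.33, against -0.43 to 0.28 for different numbers, so the aged samples were treated as paired in the block. Of the 8 same-number correlations with Young samples, which ran from -0.12 to 0.24, 5 were over 0.1. Since not every one was, the numbers give no clear pairs with Young samples. The block fits of the comparisons with Young still put each Young sample in the block of its number. Block results against Young therefore rest on that grouping.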

Additional observations from a re-analysis of the deposited data

Results flagged for a closer look

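Of the 36 sets of 4 samples checked for a sample far from the others (8 genes and 4 ratios in 3 groups), 1 was found, where chance gives about 1 in 20. *Kcnc4* in Fluo-4 normal replicate 1 was at 36.8 TPM, while the other Fluo-4 normal samples were at 49.4, 50.6 and 50.1 TPM. This sample also had the lowest scaling factor of the 12 (0.809) and the lowest *Clcn1*, *Scn4a*, *Kcnj2*, *Kcnj12*, *Kcnj11* and *Abcc9* values of its group, and the part of scaling in its *Kcnc4* value was not tested.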

How the results depend on the processing

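Of 8 genes between the aged groups, 2 passed as reported, 1 with a replicate block (*Clcn1*), 0 with the block and the *Myh4* share, 3 at 5 TPM (*Clcn1*, *Scn4a*, *Abcc9*), 3 with the block and GC trend (*Clcn1*, *Abcc8*, *Abcc9*), 2 with the *Myh4* share (*Clcn1*, *Abcc9*), and 2 to 4 with 1 sample left out (4 without Fluo-4 normal replicate 3). Against Young, 2 passed in Fluo-4 abnormal fibers, 1 with no filter, 1 at 5 TPM (*Abcc8* not tested) and 1 to 2 with a sample left out. In Fluo-4 normal fibers 0 passed, and *Kcnj11* alone (1) with TMM-type factors, at 5 TPM, with the block and with the block and GC trend. All genes called between the aged groups went from 1349 (1062 higher) to 848 (306 higher) with TMM-type factors, 850 unfiltered, 820 with the *Myh4* share, 566 with only these groups, and 606 (without Fluo-4 abnormal replicate 2) to 1420 with a sample left out. With the block and *Myh4* share limma called 0 (2461 at an unadjusted p under 0.05). At 5 TPM, where 7 of the 8 genes were tested, 1710 of 6348 genes passed. With the block and GC trend 1965 of 14429 genes passed. Against Young, 1227 became 750 unfiltered and 576 to 1677 with a sample left out. For Fluo-4 normal against Young, 166 became 71 unfiltered, 266 at 5 TPM, 320 with the block, 390 with the block and GC trend, 69 with only these groups, 358 with quality weights and 45 to 183 with a sample left out. Sign changes occurred in 15 uncalled values. Between the aged groups, *Kcnj2* was -0.072 and *Kcnj12* -0.059 with TMM-type factors, and *Kcnj2* ran from -0.045 (without Fluo-4 normal replicate 1) to 0.374 with a sample left out. Against Young, *Kcnj2* in Fluo-4 abnormal fibers was -0.15 with TMM-type factors, -0.02 without mitochondrially-encoded genes, -0.0032 with the GC trend removed, with or without the block, and -0.066 to 0.126 with a sample left out (below 0 in 5). In Fluo-4 normal fibers *Kcnj2* ran from -0.367 to 0.053 (without Fluo-4 normal replicate 1), and *Abcc8* from -0.058 (without Fluo-4 normal replicate 4) to 0.138, with -0.0054 without Young replicate 4. Against the reported fit, the block alone changed the calls of *Abcc8* between the aged groups and of *Kcnj11* named above, and no other call of the 8 genes. Added to the GC correction it brought in *Abcc9*, and added to the *Myh4* share it lost *Clcn1* and *Abcc9*. The ratios moved by less than 1 SD. The cause of these shifts was not tested. Depth is unknown, so what it limits could not be given, and *Abcc8* had the lowest level of the 8 genes.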
